A study of Mus musculus with 50 samples.

Results

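The comparison is of the terminal end buds (TEBs) of DN-Clim mice with those of wild type (WT) mice at 4 weeks of age, in early puberty. A TEB is the club-shaped tip that drives a growing mammary duct through the fat pad. The samples compared are all those labelled as TEB at 4 weeks, which are 3 DN-Clim arrays and 3 WT arrays, or 6 of the 50 arrays of the study. The remaining arrays hold TEBs at 6, 8 and 10 weeks, ducts at all 4 ages, and basal and luminal cells sorted at 10 weeks. Both genotypes were on the CB6F1 background, and per the methods mice of an age were littermates. DN-Clim mice carry a transgene for the LIM-interacting part of a Clim cofactor, with a nuclear localization signal and a Myc tag, driven by the promoter of keratin 14, a gene of duct basal cells and TEB cap cells. The captured TEB holds cap and body cells together, so most of its cells need not express the transgene. TEBs were cut by laser from stained frozen sections, and the total RNA of each sample was read on 1 Affymetrix Mouse Gene 1.0 ST array. The question was which transcripts of the TEB shift when Clim function is blocked in its outer layer at the start of ductal growth.

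Clims (LIM domain-binding proteins, Ldb1 and Ldb2) have no DNA-binding domain. They dimerise and join transcription factors that carry LIM domains, or that bind LIM-only proteins such as Lmo4, into larger complexes on enhancers and promoters. The dominant-negative form keeps the part that binds LIM domains and lacks the dimerisation part, so it occupies LIM proteins without bridging them. In the mammary gland, cap cells lie against the basement membrane and give rise to the basal, myoepithelial layer, whereas body cells give rise to the luminal layer.

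Each value is the intensity of a probe set, and where a gene has several, the brightest on average stands for it. Probe sets that reached 200 on at least 1 captured array gave 13363 genes. Median intensity was 206 to 218 on the WT arrays and 184 to 200.2 on the DN-Clim arrays, and the median log2 fold change of all genes was -0.06. Pairs of arrays correlated, over all probe sets past that level, at 0.98 within WT, at 0.97 within DN-Clim and at 0.96 to 0.98 between genotypes. The captured material carried the keratins of both layers. Krt14, of the basal layer, read 1054, 643 and 630.0 on the WT arrays and 1004, 1090.1 and 1050.2 on the DN-Clim arrays, and Krt8, of the luminal layer, read 10024, 11812 and 11249.7 in WT and 11027, 9609 and 10218 in DN-Clim. It also carried RNA of the fat around the TEB: Fabp4, the fatty acid carrier of adipocytes, read 6249, 7080.2 and 6744 in WT and 6856, 6844 and 6741 in DN-Clim. In such bulk samples, fewer cells of a type and less RNA per cell cannot be told apart.

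At 4 weeks the genes that passed the adjusted test in limma were few and of 3 kinds. R3hdml and Gsc, which encode proteins, were higher in DN-Clim TEBs. So were 4 RNAs that work as parts of RNA-protein machines, Rmrp, Rpph1, Rprl2 and Terc, whereas Serpinb11, Capn6, Igfbp2 and Fmo2 were lower. Of 13363 genes, these 10, or 0.0748%, passed an adjusted p of 0.05 in limma, 6 higher (0.0449%) and 4 lower (0.0299%). The call depended on the model, on the scaling and on single arrays. With all 21 TEB arrays in the limma fit 0 genes passed (683 at an unadjusted p under 0.05), with the 12 arrays of 4 weeks and the mouse as a block R3hdml and Gsc passed, and without a variance trend Gsc alone did. The 21 arrays include WT replicate 1 at 6 weeks, on which 9.53% of probe sets read under 1. Centring each array on its median gave 13 higher and 4 lower genes, with all 10 among them. The others were Snora73a, Snora73b, Rprl1, Retnla, Mgl2, Sfrp2 and Lrrc26. Quantile normalization gave 4 higher (Rmrp, Terc, R3hdml and Gsc) and 0 lower. Without DN-Clim replicate 2, or without DN-Clim replicate 3, no gene passed the test in limma. Without WT replicate 1 and without WT replicate 3 the test called 1 gene each, Sfrp2 and Gsc. Cyber-T, the test of the study, called 188 genes (1.41%), 72 of them higher (0.539%) and 116 lower (0.868%) after the same adjustment. All 10 genes were among them, but Cyber-T was run on the same arrays and is no independent support. An unadjusted p under 0.05 was reached by 2032 genes in limma, 480 of them higher and 1552 lower.

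**Figure D1:**
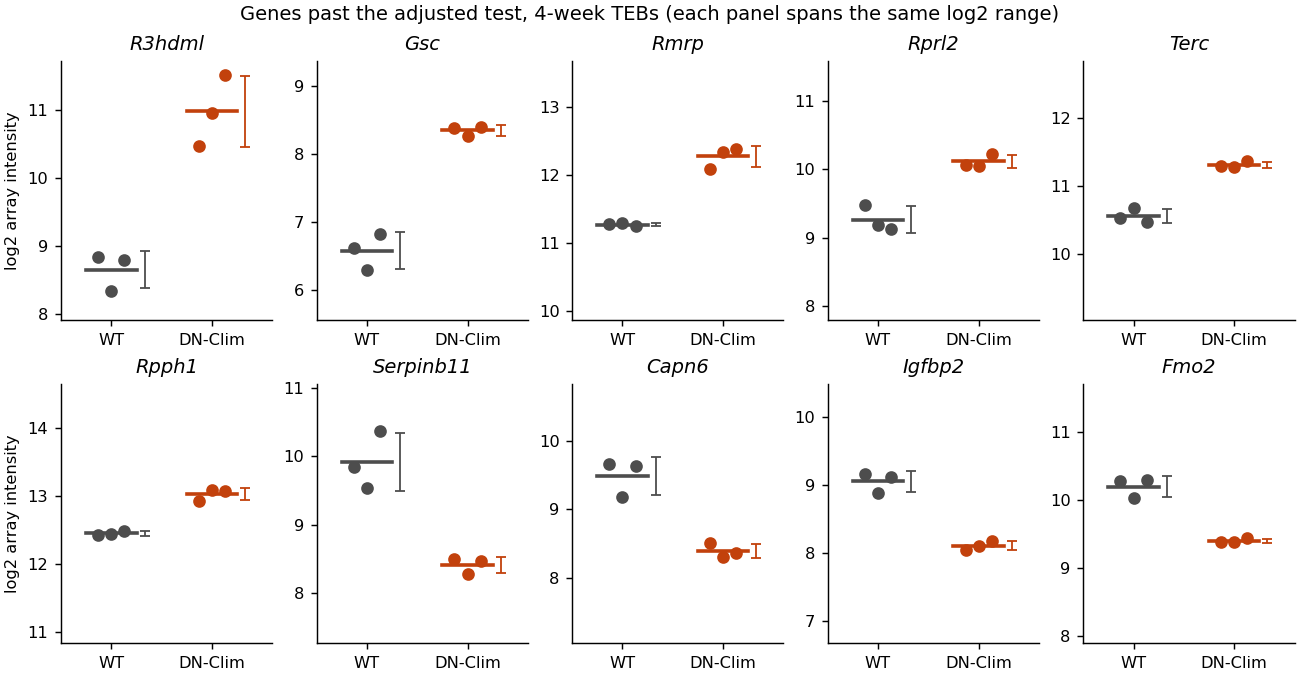
Log2 array intensity of the 10 genes past the adjusted test in the 3 WT (grey) and 3 DN-Clim (orange) TEB arrays at 4 weeks. Points are arrays, horizontal bars are means and error bars are SDs, and in each panel the 3 points of one genotype lie apart from the 3 of the other.

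R3hdml, which encodes a predicted secreted protein of the R3H domain-like kind, read 455, 322 and 442 on the 3 WT arrays and 1419, 1967 and 2912 on the 3 DN-Clim arrays. Each DN-Clim array lay above each WT array, with a wider spread in DN-Clim than in WT. The log2 fold change was 2.32 ± 0.24 (SE, n = 3 against 3; adjusted p = 0.0234), which is 5.01-fold. In WT cells sorted at 10 weeks its probe set read 1524 and 1389.7 in the 2 luminal samples and 21.2 and 19.6 in the 2 basal samples. R3hdml was thus read in WT mainly in the luminal layer, and the transgene is driven in the basal layer. In DN-Clim cells it read 4501 and 1785 in luminal and 402 and 39.4 in basal samples.

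Gsc encodes goosecoid, a homeodomain repressor of the embryonic organizer and a target of activin and Nodal signals. It read 98.5, 78.6 and 114 in WT TEBs, under the level of 200 in each array, and 332, 306 and 339 in DN-Clim TEBs. No captured WT array of any age reached 200, the highest being 142.7 in a TEB at 10 weeks. Gsc thus entered the test only through DN-Clim arrays, the group in which it was high. The 3 DN-Clim arrays lay close together and well above WT. The log2 fold change was 1.76 ± 0.15 (adjusted p = 0.0136), or 3.4-fold. In sorted basal cells, the layer that carries the transgene, Gsc read 516 and 334 in DN-Clim and 111 and 105 in WT. In luminal cells it read 179.6 and 192 in DN-Clim and 106 and 94.8 in WT. Sorted samples number 2 a group and are given as levels, without a test.

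Clims act through factors bound to promoters and enhancers, so promoters are shown for both protein-coding genes that rose and for the 2 that fell most. For each of the 6 protein-coding genes, the 250 bases before the start site in RefSeq (GRCm38.p6) were searched on both strands for TAATTA, the core of LIM-homeodomain sites, for AGATAA, a site of GATA factors, and for CAGGTG, an E-box. The motifs overlap each other in none of the windows below. Capitals mark the matches, and a window without capitals holds none. The windows are R3hdml (chr2:163492068-163492317, plus strand), Gsc (chr12:104473237-104473486, minus strand), Serpinb11 (chr1:107362064-107362313, plus strand) and Capn6 (chrX:143827413-143827662, minus strand), each written 5′ to 3′ on the strand of the gene.
R3hdml: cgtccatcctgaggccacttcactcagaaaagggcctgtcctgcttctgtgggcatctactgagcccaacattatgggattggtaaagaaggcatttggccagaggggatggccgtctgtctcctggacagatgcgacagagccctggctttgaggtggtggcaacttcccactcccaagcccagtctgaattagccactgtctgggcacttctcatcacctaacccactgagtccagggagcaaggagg
Gsc: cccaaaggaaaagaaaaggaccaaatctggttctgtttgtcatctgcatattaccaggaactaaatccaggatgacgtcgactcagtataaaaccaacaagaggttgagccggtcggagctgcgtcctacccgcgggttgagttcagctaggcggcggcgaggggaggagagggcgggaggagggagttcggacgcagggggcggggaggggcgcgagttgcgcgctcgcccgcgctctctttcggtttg
Serpinb11: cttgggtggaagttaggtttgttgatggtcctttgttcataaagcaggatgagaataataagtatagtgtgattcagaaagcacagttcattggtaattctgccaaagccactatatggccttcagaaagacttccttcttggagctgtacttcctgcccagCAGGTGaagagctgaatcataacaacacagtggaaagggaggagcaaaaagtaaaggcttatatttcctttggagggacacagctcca
Capn6: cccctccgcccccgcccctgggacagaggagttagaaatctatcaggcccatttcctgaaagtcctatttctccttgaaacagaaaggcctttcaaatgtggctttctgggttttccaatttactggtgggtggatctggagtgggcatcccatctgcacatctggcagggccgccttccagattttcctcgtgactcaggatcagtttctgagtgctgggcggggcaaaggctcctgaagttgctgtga
Of these, Serpinb11 held CAGGTG 88 bases before the start, and the other 3 held no match. Among the windows not shown, the more distal of the 2 start sites of Fmo2 (chr1:162898759-162899008, minus strand) had TAATTA 146 bases before it and AGATAA, on the other strand, 199 bases before it, whereas the other start site of Fmo2 and both of Igfbp2 had none. RefSeq windows were at hand for the 6 protein-coding genes of the 10, with 8 start sites in all, and each motif was found in 1 of the 8. Among all 32851 windows of the same length, 4.84% held TAATTA, 9.99% AGATAA and 17.2% CAGGTG. A match describes the letters only, and the lack of one in these 250 bases says nothing of the factor.

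**Figure D2:**
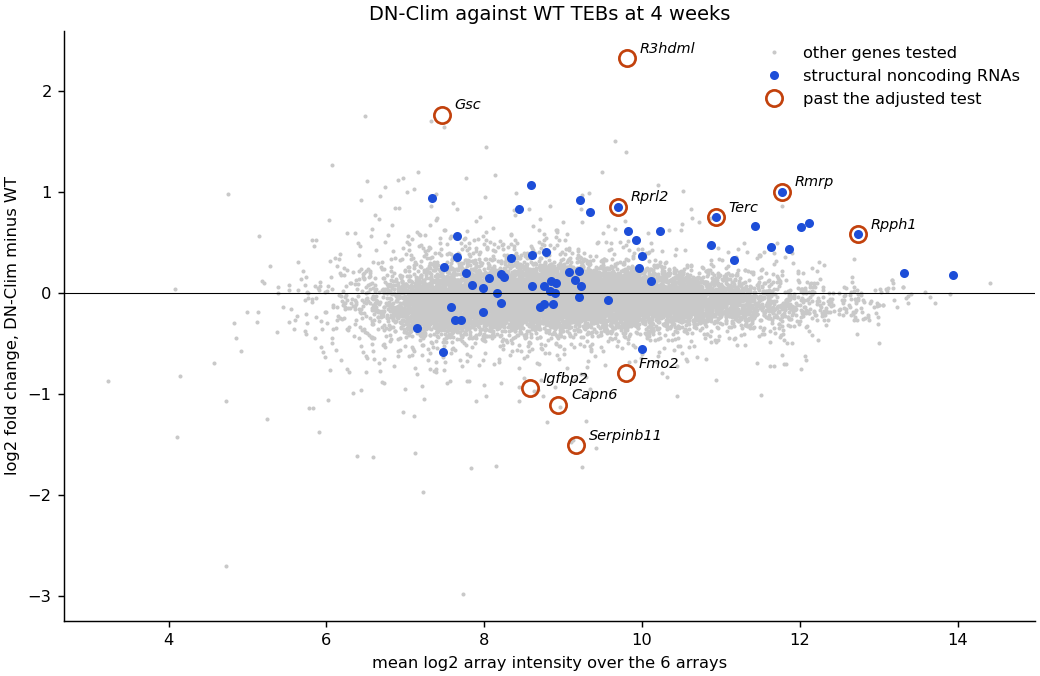
Log2 fold change of each gene, DN-Clim minus WT TEB at 4 weeks, against its mean log2 array intensity over the 6 arrays. Circles mark the 10 genes past the adjusted test and filled blue points the 60 structural noncoding RNAs, most of which lie above 0.

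The 4 genes that fell encode a protease inhibitor, a calpain, a growth factor-binding protein and an oxidase. Serpinb11, a member of the ovalbumin-like serine protease inhibitors, read 916, 741 and 1326 in WT and 359, 309 and 352 in DN-Clim TEBs. The lowest WT array was still above the highest DN-Clim array by a wide margin, and the log2 fold change was -1.51 ± 0.19 (adjusted p = 0.0433). Capn6, a calpain without a working protease site that binds microtubules, read 810.0, 578 and 798 in WT and 363, 316 and 328 in DN-Clim (-1.11 ± 0.14 on the log2 scale, adjusted p = 0.0433). In sorted WT cells Capn6 was a basal transcript, at 3739 and 3335 in basal and 28.2 and 24.4 in luminal samples.

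Igfbp2, which binds insulin-like growth factors outside the cell, read 575, 472 and 556 in WT and 264, 276 and 289 in DN-Clim TEBs. The fold change was -0.95 ± 0.10 (log2; adjusted p = 0.0234). Igfbp2 too was higher in WT basal samples (1949 and 1079) than in luminal ones (96.9 and 98.3). At 10 weeks neither gene was lower in both DN-Clim basal samples than in both WT ones: Capn6 read 2032 and 4125 and Igfbp2 1585 and 3193 there. Fmo2, a flavin-containing monooxygenase, read 1240.0, 1043 and 1256 in WT and 671, 669 and 694 in DN-Clim TEBs, with the DN-Clim arrays within a narrow band (-0.79 ± 0.09, adjusted p = 0.0263).

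The other group of higher transcripts were noncoding RNAs of the core machinery of the cell. Rmrp, the RNA of the ribonuclease that cuts precursor ribosomal RNA, read 2489.7, 2517 and 2436 in WT and 4369.6, 5210.4 and 5364 in DN-Clim TEBs. Its log2 fold change was 1.00 ± 0.09 (adjusted p = 0.0136). Terc, the template RNA of telomerase, read 1487, 1634 and 1425 in WT and 2511, 2479.8 and 2636 in DN-Clim (log2 fold change 0.75 ± 0.07, adjusted p = 0.022). In both RNAs the 2 genotypes lay well apart. In basal cells sorted at 10 weeks Terc read 2935 and 2582 in DN-Clim and 998 and 1163 in WT, whereas Rmrp read 11043 and 11347 and 10969 and 12555.

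Rpph1, the RNA of ribonuclease P, which trims precursor transfer RNAs, read 5494, 5542 and 5734 in WT and 7810.2, 8730.5 and 8606 in DN-Clim TEBs (0.58 ± 0.07, adjusted p = 0.0433). Rprl2, a ribonuclease P RNA-like gene, read 716, 583 and 557 in WT and 1075, 1065 and 1199 in DN-Clim (0.85 ± 0.11, adjusted p = 0.0433). Its relative Rprl1 read 436, 435 and 422 in WT and 732, 734 and 1005 in DN-Clim, a log2 fold change of 0.92 ± 0.12 that did not pass in limma (adjusted p = 0.0633). Rpph1, Rprl1 and Rprl2 resemble each other in sequence, so that their probe sets may read some of the same RNA.

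The same direction was seen in most RNAs of this kind, a class that was gathered from RefSeq biotypes after the values had been seen and that carries no test. RefSeq classed 60 measured genes as RNAs of ribonuclease P or MRP, telomerase RNA, small nucleolar and Cajal body RNAs, small nuclear RNAs, Y RNAs or 5S ribosomal RNA. Of these, 45 (75%) had a log2 fold change above 0, against 35.1% of all genes, and the median was 0.20 against -0.06. In 27 of the 60 the 3 DN-Clim arrays lay above the 3 WT arrays, and in 2 below, where 5.6% and 16% of all genes did so. Apart from the 4 named above, none passed the adjusted test in limma, and Cyber-T called 16 higher and 0 lower. The mean log2 intensity over the 60 was 9.10 to 9.26 on the WT arrays and 9.45 to 9.46 on the DN-Clim arrays. Leaving out each of the 6 arrays in turn left the median at 0.16 to 0.26, and quantile normalization at 0.25.

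Among the 48 small nucleolar and Cajal body RNAs, which guide the modification of ribosomal and spliceosomal RNA, 34 were above 0 and the median was 0.15. Snora44 read 221.3, 287 and 299 in WT and 436, 594 and 683 in DN-Clim (1.07 ± 0.18, adjusted p = 0.105). Snora73b read 3311, 3469 and 3759 in WT and 5854, 6378 and 4867 in DN-Clim (0.69 ± 0.11, adjusted p = 0.0812). The groups did not overlap in either, yet neither passed the test in limma, whereas Cyber-T called both. The 5S ribosomal RNA gene n-R5s136 read 406, 585 and 499 in WT and 723, 972 and 894 in DN-Clim (0.80, adjusted p = 0.172), and the vault RNA Vaultrc5, which RefSeq files outside this class, read 103, 170.1 and 220.1 in WT and 299.8, 549.5 and 474 in DN-Clim (1.44, adjusted p = 0.19). Rn7sk, the RNA that restrains the elongation factor P-TEFb, read 15091, 14608 and 14824 in WT and 16088, 17241 and 16953 in DN-Clim, a small difference of 0.17 (adjusted p = 0.315). Other noncoding classes did not follow: the median was -0.09 over 106 microRNA genes and -0.13 over 270 long noncoding RNAs. Protein-coding genes of ribosome biogenesis, a list of 33 measured genes, had a median of -0.01 with 14 above 0 and none called.

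**Figure D3:**
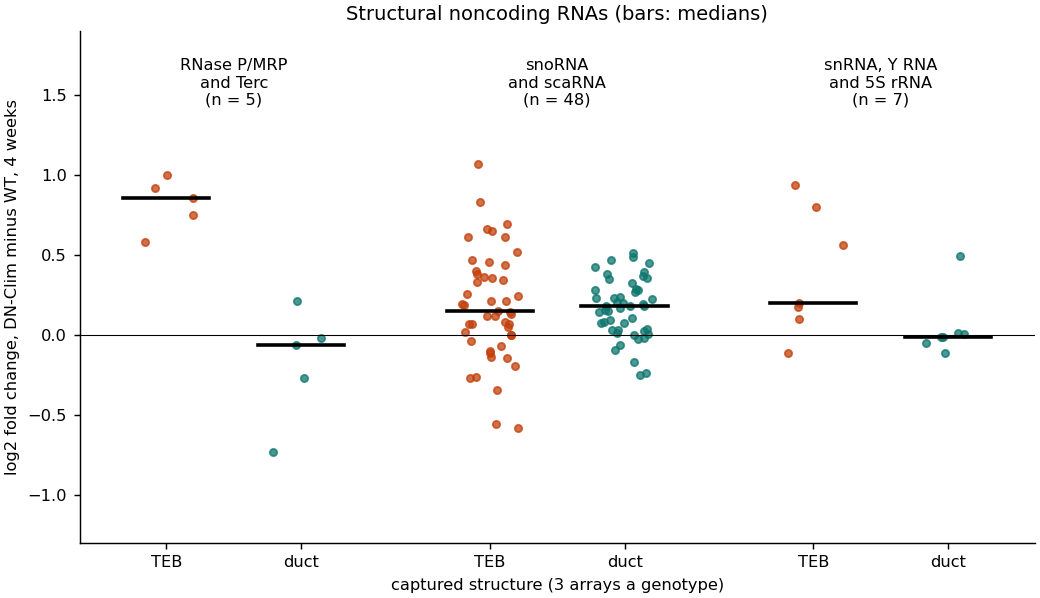
Log2 fold change, DN-Clim minus WT at 4 weeks, of the 60 structural noncoding RNAs in 3 classes, in TEBs (orange) and in ducts (green) with 3 arrays a genotype. Points are genes and bars are medians, and the 4 RNase P and RNase MRP RNAs all lie above 0 in TEBs, whereas 1 of the 4 does in ducts.

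Beyond the 10 genes, the largest changes with groups that did not overlap and an unadjusted p under 0.01 did not pass the adjusted test in limma. On the higher side stood Ly6d (1.5), a surface antigen of epithelial and lymphoid cells, Ifi205 (1.40), an interferon-inducible gene, Clec3b (1.20), which encodes tetranectin, Mmp3 (1.17), the matrix protease stromelysin-1, and Fbp1 (1.14), an enzyme of gluconeogenesis. Their adjusted p-values were 0.172 to 0.251 in limma and 0.00127 to 0.0147 in Cyber-T. Ly6d read 357, 926 and 334 in WT and 995, 1474 and 1714 in DN-Clim, so that WT replicate 2 came close to the lowest DN-Clim array. Mmp3 read 239, 160.2 and 174 in WT and 369.9, 347 and 589.6 in DN-Clim.

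On the lower side stood Csn1s1 (-1.59), the alpha-S1 casein of milk, Reln (-1.54), the secreted protein reelin, Ppp1r3c (-1.28), which targets a phosphatase to glycogen, Tmem229a (-1.22), Crym (-1.07), a thyroid hormone-binding crystallin, Sorcs1 (-1.07), a sorting receptor, 3830417A13Rik (-1.06) and Sema3d (-1.05), a secreted guidance factor. Their adjusted p-values were 0.0816 to 0.251 in limma. In Cyber-T they were 0.000149 to 0.0244, apart from 0.129 for 3830417A13Rik. Reln read 1373, 938 and 1237 in WT and 661, 335 and 293 in DN-Clim TEBs, and Csn1s1 read 179, 247 and 317 in WT and 151, 96.6 and 35.6 in DN-Clim. By an unadjusted p under 0.01 with a 1.5-fold change, limma gave 44 genes higher (0.329%) and 56 lower (0.419%). The study used such a rule with Cyber-T and asked for the change at 2 or more ages, with a p of 0.001 in its methods and of 0.01 in its legends.

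A list of 20 genes, most of them discussed in the study, was looked up next. It is not complete for the genes the study mentions, and it holds Myc, which the study mentions as the tag of the transgene. None of its 19 measured members passed the adjusted test at this age. The Clims themselves read near the WT level: Ldb1 read 3056, 2963 and 2974 in WT and 3346, 3438 and 3079 in DN-Clim TEBs (log2 fold change 0.13, 95% interval -0.02 to 0.29). For Ldb1 each DN-Clim array lay slightly above each WT array, a pattern of 5.6% of all genes. Ldb2 read 304, 281 and 269 in WT and 371, 236 and 349 in DN-Clim (0.14, -0.25 to 0.52). Where these probe sets lie relative to the part carried by the transgene was not examined, so they do not check the transgene. In basal cells sorted at 10 weeks Ldb2 read 449 and 309 in DN-Clim and 139 and 119.4 in WT. Ldb1 went the other way there, at 2339 and 2407 in DN-Clim and 2575 and 3787 in WT. The LIM-only partner Lmo4 read 2902, 2602 and 2976 in WT and 2332, 2313 and 2135 in DN-Clim, lower in each DN-Clim array than in each WT array (-0.32, -0.50 to -0.15; adjusted p = 0.214).

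Gata3, a transcription factor that luminal cells need, was likewise lower in each DN-Clim array, at 2435, 2589.7 and 2070.0 against 2949.8, 3379 and 2698 in WT (-0.35, -0.60 to -0.10; adjusted p = 0.257). So was Fgfr2, the fibroblast growth factor receptor that TEBs need to extend, at 3758, 2821 and 2621 against 4631, 3917 and 4030.4 (-0.47, -0.77 to -0.16; adjusted p = 0.251). Neither passed the test. In 4 of the 19 measured genes of the list each DN-Clim array lay below each WT array, where 16% of all genes did so. Among all 24 listed Clims and LIM partners, 18 were measured, 10 above 0, with a median of 0.03 and none called.

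Lgr5, a Wnt-amplifying receptor found in stem cells, read 366, 264 and 171 in WT and 213, 173 and 158 in DN-Clim, groups that overlapped (-0.50, -1.08 to 0.08). The ErbB receptors did not pass the test, with log2 fold changes of 0.06 (-0.14 to 0.27) for Erbb2 and -0.08 (-0.44 to 0.27) for Erbb3. The basal genes Krt5 (0.07), Krt14 (0.48) and Acta2 (-0.23) and the luminal genes Krt8 (-0.10) and Krt18 (-0.05) did not pass. The 95% interval of Krt14, 0.06 to 0.89, lay above 0, although its groups overlapped (adjusted p = 0.293 in limma). Among surface markers of the study, Itgb1 (CD29, -0.13) and Cd24a (CD24, -0.27), used to sort the layers, and Itgb3 (CD61, -0.32), used for luminal progenitors, did not pass. Neither did the hormone receptors Esr1 (0.19) and Pgr (-0.41), nor Myc (0.07). Pgr spread the most, at 1407, 3139 and 2067 in WT and 2589, 1852 and 814 in DN-Clim.

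**Figure D4:**
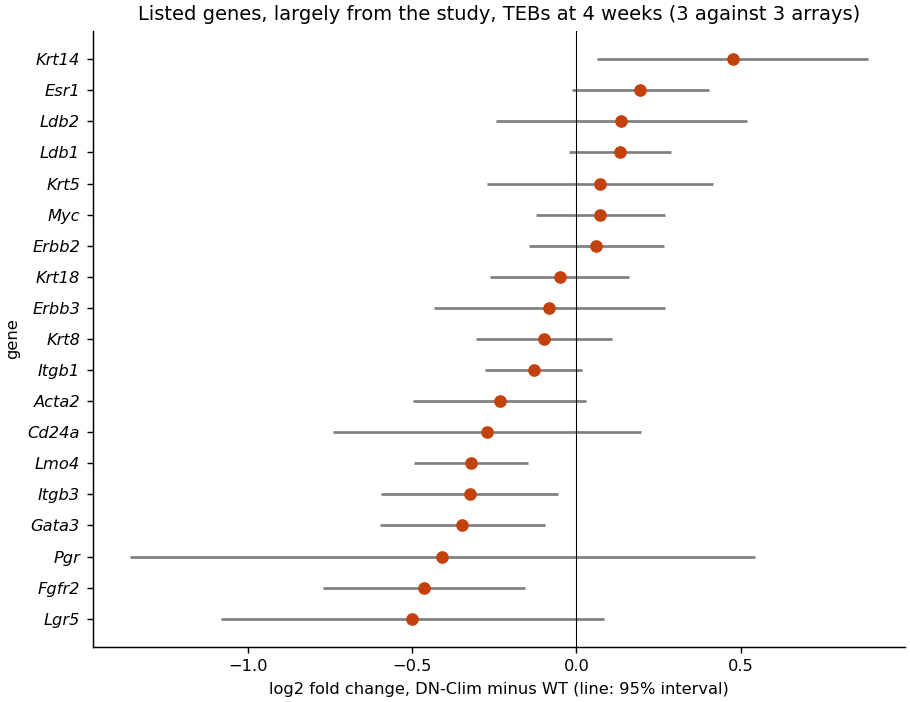
Log2 fold change, DN-Clim minus WT TEB at 4 weeks (3 against 3 arrays), of the 19 measured genes of the list drawn largely from the study. Points are the fitted values and lines their 95% intervals, and the points run from -0.50 for Lgr5 to 0.48 for Krt14.

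The gene lists that follow are to be read against all genes, of which 35.1% lay above 0 with a median of -0.06. Unless Cyber-T is named, called and passed refer in them to the adjusted test in limma. None of the proliferation transcripts listed passed the adjusted test. By BrdU labelling the study counted fewer proliferating cells in DN-Clim TEBs, with the largest drop in cap cells and a moderate one in body cells. Transcript levels over the whole TEB are a different measure and do not count such cells. Mki67, the marker of cycling cells, read 2837, 2476 and 2902 in WT and 2440.3, 2756 and 3103 in DN-Clim TEBs, a log2 difference of 0.01 (95% interval -0.22 to 0.25). Over 41 measured genes of cell division and DNA replication, 22 were above 0, the median was 0.01, the range was -0.25 to 0.26, and none was called or reached an unadjusted p under 0.05. Top2a (-0.10), Cdk1 (0.00), Pcna (-0.14) and Ccnd1 (-0.07) all overlapped between genotypes.

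The signaling lists held 1 called gene, Gsc, in the list of TGF-beta and BMP signaling. In that list 26 genes were measured, the median was 0.02, and Id4 (1913, 1642 and 1922 in WT, 1415, 1308 and 1422 in DN-Clim; -0.40) and Tgfb2 (-0.46) were lower in each DN-Clim array without passing. Of the 26, 4 were lower without overlap and 4 higher, where 16% and 5.6% of all genes were. Of 18 measured ErbB ligands, receptors and sheddases, 5 lay above 0, where 35.1% of all genes did, and the median was -0.16 against -0.06 over all genes. The ligand Nrg1 had a mean intensity of 846 ± 84.6 in WT and 551 ± 84.1 in DN-Clim (SD, n = 3; -0.62 ± 0.13, adjusted p = 0.176). Areg, the ErbB ligand of estrogen-driven duct growth, overlapped between genotypes (-0.38, -1.02 to 0.26).

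Medians were -0.03 over 24 FGF genes, -0.01 over 37 Wnt ligands, receptors and inhibitors, 0.00 over 12 Wnt targets, -0.01 over 17 Notch genes and 0.06 over 6 hedgehog genes, with none called in any of them. Sfrp2, a secreted Wnt inhibitor, stood apart in its list: it read 555, 401 and 367 in WT and 822, 864 and 855 in DN-Clim (0.96 ± 0.14, adjusted p = 0.0812). Of 23 metalloproteinases and inhibitors none was called and the median was -0.01. Genes of the TEB cap and of invasion split evenly, 12 above 0 and 12 below.

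Cell layer lists were near the median of all genes, at 0.03 for 19 basal genes, -0.02 for 17 luminal genes, -0.05 for 16 hormone-sensing genes and -0.11 for 23 basal stem cell factors, and no member was called. Itgb4, the hemidesmosome integrin of basal cells, was closest to the test, at 1048, 1076 and 1053 in WT and 1382, 1404 and 1451 in DN-Clim (0.42 ± 0.06, adjusted p = 0.0812). Among 16 milk and luminal progenitor genes the median was -0.07. Csn3, the kappa-casein, read 5841, 5897 and 5598 in WT and 4687, 4278 and 4934 in DN-Clim (-0.32, adjusted p = 0.214). Of 28 measured genes of epidermal differentiation, a program of keratin 14-positive skin, 8 lay above 0 (median -0.10) and none was called.

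Of 21 measured lipid synthesis genes 8 lay above 0, a share close to that of all genes (35.1%; median -0.10), and the 5 at an unadjusted p under 0.05, all lower, were the fatty acid synthesis genes Fasn (-0.50), Acaca (-0.66), Acly (-0.73), Scd2 (-0.35) and Elovl6 (-0.69). At that unadjusted p, 1552 of all 13363 genes were lower. Elovl6 read 2789, 3779 and 4307 in WT and 2416, 2141 and 2075 in DN-Clim, and none of the 5 passed the adjusted test in limma (adjusted p = 0.191 to 0.286). Cyber-T called 4 of the 21 lower and 0 higher, where it called 0.868% of all genes lower. In ducts at 4 weeks 1 of the 21 lay above 0, with a median of -0.26 against 0.02 for all genes. Of 24 measured immediate-early genes 19 were above 0 (median 0.12), where 35.1% of all genes were. In 8 of the 24 the DN-Clim arrays lay above the WT arrays without overlap, where 5.6% of all genes did so, and none was called. Jun read 1571, 1839.7 and 1737 in WT and 1924, 2442 and 2679 in DN-Clim (0.44, adjusted p = 0.251). Heat shock and unfolded protein genes had a median of -0.09 over 18, glycolysis and hypoxia genes -0.14 over 17, interferon response genes -0.02 over 12 and imprinted growth genes 0.18 over 13, with none called.

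Listed markers of other cells in the section leaned with the genotype in places, and none of those listed was called. All 12 measured macrophage markers lay above 0 (median 0.24, none called), and Lyz1, a lysozyme, read 790.1, 641 and 641 in WT and 1446, 941 and 1054 in DN-Clim. Their summed intensity was 6397 to 6984 on the WT arrays and 6442 to 10505 on the DN-Clim arrays, groups that overlapped. Fibroblast and matrix genes lay above 0 in 15 of 21 (median 0.07), with Col1a1 at 3236, 3405 and 3348 in WT and 4764, 3918 and 4447 in DN-Clim. Their summed intensity was 57726 to 62620.5 in WT and 54378 to 70812 in DN-Clim. Endothelial genes lay above 0 in 13 of 17 (median 0.06).

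Adipocyte genes were even, with 8 of 16 on each side (median 0.00), although Ucp1, the uncoupling protein of brown fat, ran from 118 to 2449 among the 6 arrays without regard to genotype. Skeletal muscle genes lay below 0 in 14 of 15 (median -0.16), with summed intensities of 2531 to 2939 in WT and 2199.9 to 2750.3 in DN-Clim. Lymphocyte and mast cell markers lay above 0 in 7 of 14 and nerve markers had a median of -0.05 over 6, and the 1 red blood cell gene measured was at -0.31. Under quantile normalization the muscle median was 0.00 and the epidermal one 0.03, both turned in sign, whereas the macrophage median was 0.29. Secretory and mucosal genes had a median of -0.21 over 14, led by Dmbt1, a secreted scavenger protein that read 309, 692 and 997 in WT and 409, 44.5 and 23.8 in DN-Clim (-2.98 ± 0.93, adjusted p = 0.257). The part of these cells, and of the lower median intensity of the DN-Clim arrays, in the changes above was not tested.

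Ducts at 4 weeks were read as well, again with 3 DN-Clim and 3 WT arrays. They were taken to come from the same mice as the TEBs, so they are not an independent reading of the genotype. There 4 genes were higher (0.0299%) and 2 lower (0.015%) by the same test. R3hdml (2.34 ± 0.20 in duct, adjusted p = 0.00246), Gsc (1.66 ± 0.12, adjusted p = 0.00154) and Igfbp2 (-1.41 ± 0.14, adjusted p = 0.00869) passed in both structures. Dscam, Edar and Cxcl14 passed in the duct and not in the TEB, where their log2 fold changes were 1.14, 0.56 and -0.61.

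Whether DN-Clim acted differently in TEBs than in ducts was tested for each gene, and the difference passed the adjusted test in limma for 0 genes (0%), and 1797 genes reached an unadjusted p under 0.05. For R3hdml and Gsc the 2 effects lay -0.02 ± 0.24 and 0.11 ± 0.15 apart on the log2 scale. For the 4 machinery RNAs that rose in TEBs, the duct values were 0.21 ± 0.26 for Rmrp, -0.02 ± 0.31 for Terc, -0.06 ± 0.18 for Rpph1 and -0.27 ± 0.29 for Rprl2. Their differences of effect ran from 0.65 to 1.12 (adjusted p = 0.316 to 0.317). The WT ducts spread widely for them, with Rmrp at 2676, 6131 and 2834 and Terc at 1923, 4596 and 1718, and replicate 2 stood above the other WT ducts in both. The small nucleolar RNAs leaned higher in the duct as well, with 40 of 48 above 0 and a median of 0.18, beside 0.02 for all genes there.

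The 5 genes with the lowest p for this difference were Rprl1 (1.65 ± 0.28), Gm5478 (0.79), Zc3h6 (-0.73), Tmem260 (-0.50) and 1600029O15Rik (0.46), each with an adjusted p of 0.316. Serpinb11 and Capn6 were lower in the DN-Clim duct too, at -2.57 ± 0.40 and -1.17 ± 0.26, without passing (adjusted p = 0.0901 and 0.251). Fmo2 read -0.25 ± 0.13 there.

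Across ages, the DN-Clim effect in TEBs at 4 weeks was set against the mean effect at 6, 8 and 10 weeks, with all 21 TEB arrays. The 4-week arrays in it are the 6 described above, so this test is not independent of them. The test was passed by 1 gene of 13363 (0.00748%), Mmp3, while 995 genes reached an unadjusted p under 0.05. Mmp3 was 1.17 higher in DN-Clim TEBs at 4 weeks on the log2 scale, -0.03 at 6 weeks, -1.64 at 8 weeks and -0.42 at 10 weeks. Its difference of effects was 1.87 ± 0.24 (adjusted p = 0.0105), which without WT TEB replicate 3 at 4 weeks was 1.81 and no longer passed (adjusted p = 0.0803). In WT TEBs Mmp3 had a mean log2 level of 7.56 ± 0.30 (SD, n = 3) at 4 weeks and 10.34 ± 0.29 (n = 2) at 8 weeks. In DN-Clim TEBs it was 8.72 ± 0.42 and 8.70 ± 0.09 (n = 3 each). The next genes by p were Dzip3 (-0.74), Rbm12b2 (-0.65), Plce1 (0.77) and Il33 (-2.04), each with an adjusted p of 0.256. Age and litter cannot be told apart, since the mice of an age were littermates.

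The 10 genes of 4 weeks followed different courses later. R3hdml was higher in DN-Clim TEBs by 2.49, 3.28 and 0.70 at 6, 8 and 10 weeks on the log2 scale, and Gsc by 3.22, 1.08 and 0.80. The Gsc value at 6 weeks rests on WT replicate 1 of that age, an array with 9.53% of its probe sets under 1, where Gsc read 0.00462 against 98.0 and 84.1 in the other two. Serpinb11, Capn6 and Igfbp2 were at 9.92 ± 0.42, 9.49 ± 0.27 and 9.06 ± 0.15 in WT TEBs at 4 weeks (mean log2 level, SD) and at 5.47 ± 2.33, 6.92 ± 0.91 and 8.11 ± 0.31 at 10 weeks. At 6, 8 and 10 weeks Serpinb11 differed by 0.04, 0.02 and -1.22, Capn6 by -0.08, -0.27 and -0.95, and Igfbp2 by -0.12, -0.35 and -0.30 on the log2 scale (DN-Clim minus WT). Fmo2 was below WT at each later age, at -0.35, -0.54 and -0.69. The machinery RNAs were below 0 at 6 weeks (Rmrp -0.27, Terc -0.33) and above 0 at 8 weeks (Rmrp 1.27, Terc 1.74) and 10 weeks (Rmrp 0.42, Terc 0.53). Over the 60 structural RNAs the median effect was -0.23 at 6 weeks, 0.85 at 8 weeks and 0.28 at 10 weeks. Every 6-week effect given here includes WT replicate 1 of that age, the array with 9.53% of its probe sets under 1.

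**Figure D5:**
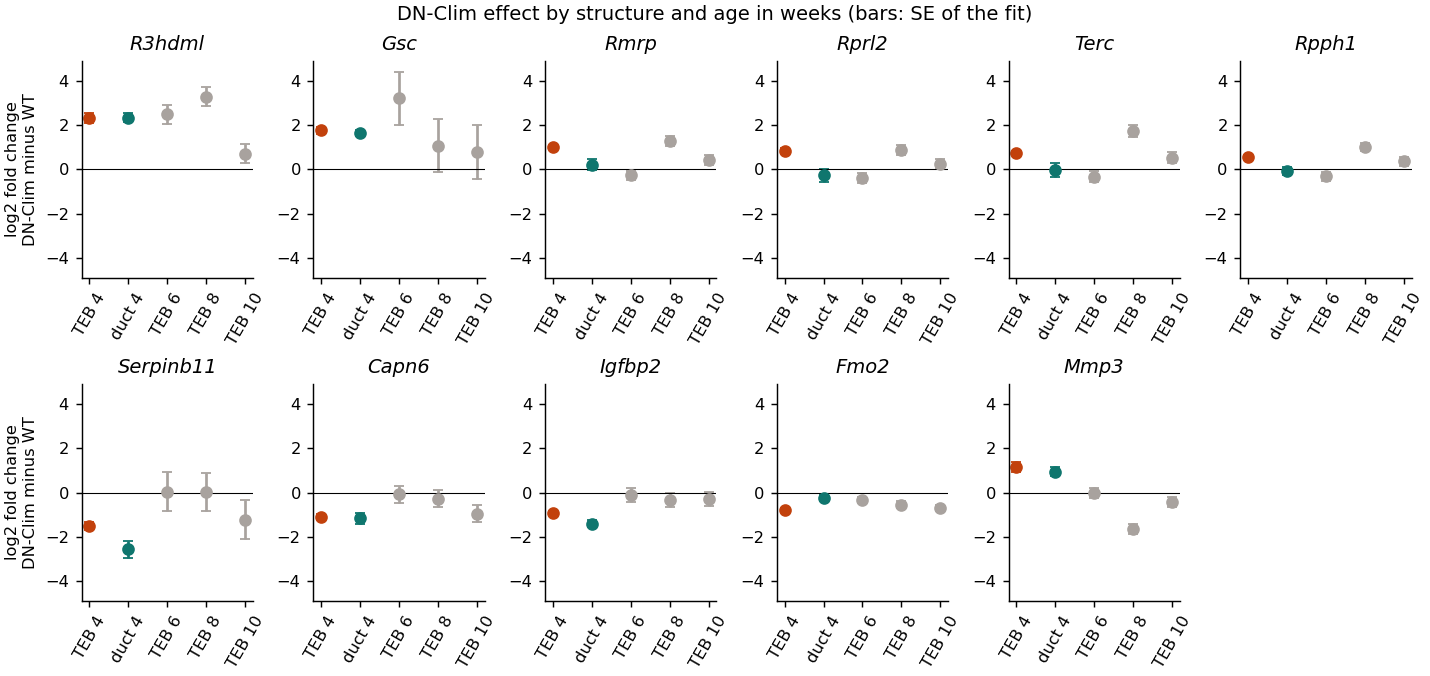
Log2 fold change, DN-Clim minus WT, of the 10 genes past the test at 4 weeks and of Mmp3, in TEBs and ducts at 4 weeks and in TEBs at 6, 8 and 10 weeks. Points are fitted values and bars the SEs of the fits (6 arrays at 4 weeks in TEBs and in ducts, 21 TEB arrays for the later ages), and R3hdml and Gsc lie above 0 in every panel position whereas Mmp3 is above 0 only at 4 weeks.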

How the data were processed

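Laser-captured TEBs were profiled with Mouse Gene 1.0 ST arrays (Affymetrix). The authors used PLIER to combine the probes of a set, and what they deposited are linear intensities. The PLIER version and background step were not given in the sources used here. Per the methods the study then took log2 and centred the data to unit variance, without stating whether by array or by gene; the alternative with each array at a common mean and variance stands nearest to that. Precision is limited by the number of arrays. Groups came from the sample labels. A TEB and a duct array that share genotype, age and number were taken as 1 mouse, which no source used here states; their deviations correlated at 0.43 to 0.65.

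Values below 1 were raised to 1 before taking log2, with no further normalization. Of 35557 probe sets, 21789 carried 1 gene symbol, 1621 several and 12147 none, and only the first (with 1 probe set, of Areg, named by the study's tables) were given a gene. The 22693 probe sets with 200 or more on at least 1 of the 42 laser capture arrays were kept. DN-Clim and WT TEB arrays of 4 weeks were compared with limma 3.58.1 in R 4.3.3 (lmFit, then eBayes allowing a trend), and p-values were adjusted by Benjamini-Hochberg over the 13363 genes. The difference between TEB and duct was fitted on 12 arrays with the mouse as a random block (consensus correlation 0.46), and that between ages on the 21 TEB arrays. Cyber-T used a window of 101 and a confidence of 10. The fits were tested on simulated data. Replicates are littermates within an age per the methods, so p-values measure the spread between these mice.

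The genes named are the 12 largest increases and 12 largest decreases past the test without overlap, filled up where fewer passed with genes at an unadjusted p under 0.01 and 1.5-fold, the list of 20 genes drawn largely from the study, list members past the test and the 5 genes with the lowest p for each of the 2 differences. Others were chosen after their values were seen. The members and the 35 gene lists were chosen with earlier results of these data known. Alternatives were other scalings, floors and filters, fits with more arrays, blocks, Cyber-T and leaving out each array.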

Additional observations from a re-analysis of the deposited data

Results flagged for a closer look

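The effect of DN-Clim on Mmp3 in TEBs differed between ages by the test of the difference itself, at 1.87 on the log2 scale for 4 weeks minus the mean of 6, 8 and 10 weeks (adjusted p = 0.0105). Mmp3 was above WT in 3 of 3 DN-Clim TEB arrays at 4 weeks. In ducts at 4 weeks it was also higher in DN-Clim, by 0.94 ± 0.21, without passing in limma (adjusted p = 0.251). In basal and luminal cells sorted at 10 weeks it read only 50.8 to 106.6 over both genotypes. Which cells of the captured TEB carried it was not tested. At 8 weeks, where the WT group has 2 arrays, Mmp3 read 1491 and 1123 in WT and 442, 413 and 391 in DN-Clim TEBs. Leaving out each 4-week TEB array in turn gave 1.63 to 2.04, and without WT replicate 3 the difference did not pass (adjusted p = 0.0803).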

How the results depend on the processing

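The 10 genes kept their direction under all 18 alternatives run on each, but not their call. The alternatives reuse the same 4-week arrays, so a kept direction is no independent support. As the groups of each gene do not overlap, leaving out an array could not turn it. The count of 10 became 4 with quantile normalization, 17 with arrays centred on their median, 17 at a common mean and variance, 2 with the 12 arrays of 4 weeks and the mouse as a block, 0 with all 21 TEB arrays in the limma fit (683 at an unadjusted p under 0.05), 1 without a variance trend, and 188 with Cyber-T. Leaving out each array gave 0 to 11. The rule of an unadjusted p with a 1.5-fold change gave 100.0 and 176 genes at 0.01 and 39 and 116 at 0.001, by limma and Cyber-T. The other filters, floor and pseudocount, single probe sets and the mean over probe sets gave 9 to 12. Replicate numbers did not pair the arrays (correlations of same-numbered deviations -0.29, -0.12 and 0.08); the fit with the replicate block gave 10 genes, 5 of them the same. Gsc kept its call in 14 of 18 alternatives, R3hdml in 12, Rmrp in 11, Terc in 10, Capn6 in 9, Serpinb11, Igfbp2 and Fmo2 in 8, and Rpph1 and Rprl2 in 7; the cause was not tested. The count for TEB against duct stayed at 0 in all 11 alternatives, the replicate block included. The count for age was 0 to 4 on leaving out each 4-week array, the extra genes being Reck, Ly6e, Ly6d, Ifi205, Ifi207 and Ogn, and 1 otherwise. Low intensities, near or under 200, limit what can be read of Gsc in WT TEBs, and Gsc passed the filter only through DN-Clim arrays.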
